A study of Mus musculus with 48 samples.

Results

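The comparison asked which genes were changed in the mouse brain after permanent middle cerebral artery occlusion (MCAO) at whatever time the tissue was taken, over 5 times that ran from hours to a week. It set 24 MCAO libraries against 20 sham libraries, 44 of the 48 bulk RNA libraries of the series, with the time as a block, so that a gene moved in a single direction at each time stood out. The animals were male C57Black/6 mice aged 3 months. Under isoflurane the artery was exposed through a small hole in the skull, coagulated and cut in the MCAO mice, and the shams went through the same surgery without coagulation. There were 5 MCAO libraries at 3 h, 12 h, day 3 and day 7 and 4 at 24 h, and 4 sham libraries at each time. The remaining 4 libraries came from intact cortex of control mice and entered no test. The lesions of this model are small and lie in parietal cortex. The tissue held affected and non-affected brain, and its extent is given in 2 ways, as the injured cortical region in the sample labels and as a forebrain hemisphere in the description of the series. In such tissue a change in the number of cells of a type and a change in RNA per cell cannot be told apart.

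Occlusion of a cerebral artery starves the cortex behind it of oxygen and glucose, and neurons in the core of the lesion die within hours. Dying cells release signals that set off transcription factors of the immediate early class, heat shock proteins and cytokines in the cells around them. Microglia and astrocytes then become reactive, vessels express adhesion molecules, leukocytes enter from the blood, and a scar of matrix is laid down around the lesion.

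Each library held between 1522668 and 2826735 reads counted on genes, with a median of 2000307 in MCAO and 2039858 in sham. The share of spike-in reads ran from 3.87% to 5.97% in MCAO and from 3.71% to 5.37% in sham. In 6 libraries the spread around the others of their group exceeded 0.55 (SD of the log2 difference over well expressed genes), namely MCAO 12 h D, MCAO day 3 A, MCAO day 7 C, sham 12 h A, sham 12 h C and sham day 7 D. Their values ran from 0.586 to 0.669, against 0.295 to 0.515 in the other MCAO and sham libraries. MCAO 12 h D, sham 12 h A and sham day 7 D shared a set of low genes that no condition defined. Ctnnd1, an adherens junction protein, had 0, 0 and 1 reads in them, and Psap, a lysosomal protein precursor, had 62, 95 and 174 reads. The counts of genes called and of the core are therefore also given without these 6 libraries.

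Across all times, 915 genes were called higher after MCAO and 71 were called lower (Benjamini-Hochberg adjusted p under 0.01 in edgeR's quasi-likelihood test and a fitted log2 fold change over 0.58 in size). Of the 19827 genes tested, these were 4.61% and 0.358%. Without the 6 libraries, an alternative chosen after the data were seen, the counts were 870 and 68. Without day 3 they were 497 and 59, and without day 7 they were 677 and 37.

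Of the 915 genes called higher, 669 (73.1%) had a fold change above 0 at each of the 5 times, and of the 71 called lower, 65 (91.5%) lay under 0 at each. Over all genes tested, called or not, 8.38% lay above 0 at each time and 6.98% under 0. The 669 and 65 called genes, 3.37% and 0.328% of the genes tested, are called the core here. Without the 6 libraries it held 629 rising and 60 falling genes. The fitted fold changes of the core had a median of 1.76 on the log2 scale in the rising genes and -0.71 in the falling genes, beside 0.02 over all genes tested. Among the rising genes 643 coded for proteins, and among the falling genes 48 did. In 29 rising genes the 20 shams together held no read, and with these genes at the lower bound of their change the median of the rising genes was 1.76 as well. At every time 322 of the 669 rising and 9 of the 65 falling genes passed the fold threshold (1.62% and 0.0454% of the genes tested).

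The rising part of the core, which by its rule lay above 0 at 3 h, was larger later. Its median log2 fold change was 0.89 at 3 h, 1.5 at 12 h, 1.32 at 24 h, 2.51 on day 3 and 1.98 on day 7, and 360 of its 669 genes had their largest change on day 3. Without MCAO day 7 C the day 7 median was 1.32. The falling part had medians of -0.49, -0.63, -0.79, -0.76 and -1.18 at the same times, and 36 of its 65 genes were lowest against sham on day 7. The medians over all genes tested stayed between 0.00 and 0.04 at the 5 times. Since these genes were chosen on these libraries, the values describe the core and do not test it.

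Each MCAO library showed the rise, though to very different degrees. The genes were chosen on these same libraries, so the separation from sham was in large part set by that choice and is no test. Over the 519 rising core genes with a mean of at least 2 CPM (counts scaled to a common library size), the median difference from the shams of the same time was between 0.286 (MCAO day 3 A) and 2.37 (MCAO day 3 C) on the log2(CPM + 2) scale. The sham libraries lay between -0.10 and 0.104 and the 4 controls, set against all shams, between 0.056 and 0.137. On day 7, replicate C stood at 2.16 while the other 4 libraries lay between 0.646 and 0.918. The 57 falling core genes of that level overlapped between conditions over all times, at -1.15 to -0.13 in MCAO and -0.60 to 0.385 in sham. They were lowest on day 7, where all 5 MCAO libraries lay between -1.15 and -0.86.

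**Figure D1:**
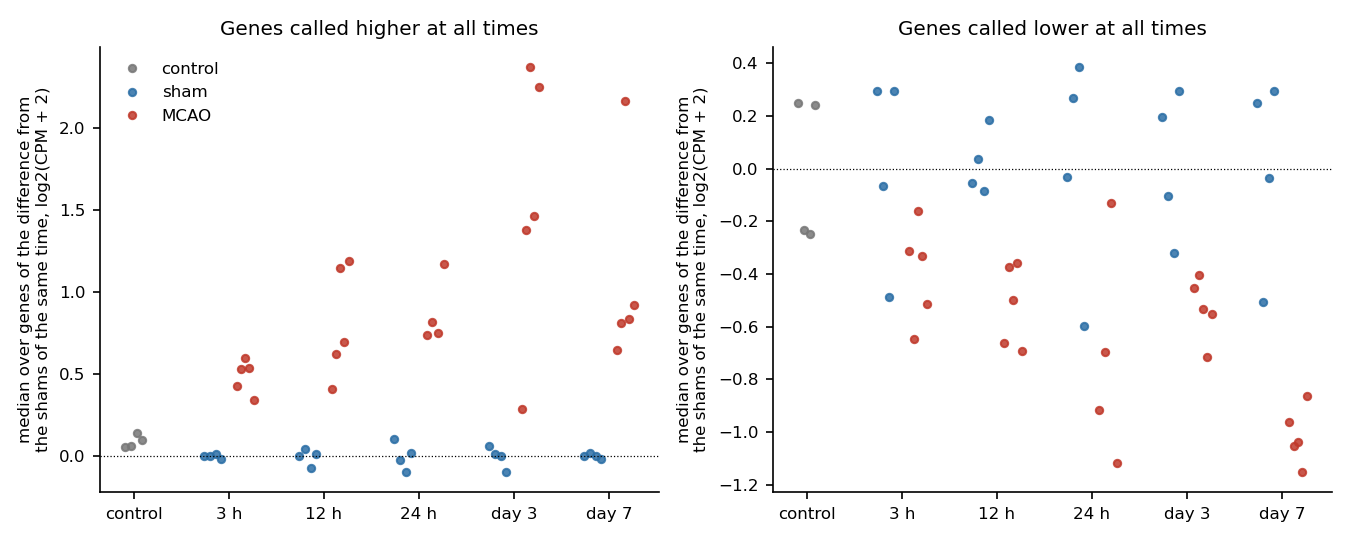
Median difference of each library from the shams of the same time, in log2(CPM + 2), over the 519 core genes called higher (left) and the 57 called lower (right) with a mean of at least 2 CPM. Each point is 1 library, a sham is set against the other shams of its time and a control against all shams. The genes were chosen on these same MCAO and sham libraries, so their separation is no test. On the left the 24 MCAO libraries lie between 0.286 and 2.37, above the 20 shams at -0.10 to 0.104, and on the right the conditions overlap at 3 h and 24 h and not at 12 h, day 3 or day 7.

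In 4 genes every MCAO library lay above every sham library of any time, which 0.0202% of the genes tested did. They were Ccl4, whose closest MCAO and sham libraries tied in reads and differed by scaling only, Tuba1c, Fcgr3 and Col4a1. None of the 71 genes called lower had all MCAO libraries under all shams.

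Ccl4 (chromosome 11, 83662584 to 83664683, plus strand) encodes a chemokine that draws monocytes and lymphocytes. Its level was 11.1, 15.0, 5.44, 14.2 and 0.455 CPM in the 5 MCAO libraries at 3 h and 6.31, 2.54, 33.3, 1.43 and 2.54 CPM in those of day 7. The 20 shams held a single read of it between them, in sham 12 h C (0.366 CPM), and 1 of the 4 controls held one as well (0.555 CPM). MCAO libraries ranged from 0.381 to 46.7 CPM with a median of 6.66. Pooled over libraries, the ratio of MCAO to sham was 435, with an exact 95% interval from 77.7 to 17200 that covers counting error only. Its level thus lay at or near the floor without occlusion, and its lowest MCAO libraries rested on 1 read. The MCAO library at 0.381 CPM and sham 12 h C held 1 read each, so only the scaling of library sizes separated them. The MCAO values of 0.381 and 0.455 CPM lay under the 0.555 CPM of that control.

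Tuba1c (chromosome 15, 99029891 to 99038110, plus strand) encodes an alpha-tubulin, a subunit of microtubules. At 3 h it stood at 12.4, 6.58, 30.6, 6.90 and 9.55 CPM after MCAO and at 2.02, 0, 2.68 and 0.547 CPM in sham. On day 3 it stood at 5.27, 40.9, 144, 81.2 and 121 CPM against 1.44, 1.85, 0.924 and 0.926 CPM. Across all times the MCAO libraries held 4.44 to 144 CPM (median 18.5) and the shams 0 to 3.93 CPM (median 1.93), a log2 fold change of 3.90 ± 0.38 (SE, n = 24 and 20, adjusted p = 2.08e-10 by edgeR). The controls, at 0.556 to 3.43 CPM, lay within the shams. A second tubulin, Tubb6, a beta-tubulin, was among the strongest core genes as well, at 0 to 55.2 CPM (median 12.5) against 0 to 3.23 CPM (median 0.497), with a log2 fold change of 4.22 ± 0.38. Reads near the ends of related tubulin genes may be shared between them, which was not tested.

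Fcgr3 (chromosome 1, 171051174 to 171064935, minus strand) encodes an Fc receptor for immunoglobulin G that myeloid cells carry. It was well above 0 in sham, at 2.31 to 13.5 CPM (median 8.5), and at 14.2 to 141 CPM (median 21.1) after MCAO. At 24 h the MCAO libraries held 22.0, 22.3, 24.7 and 28.1 CPM and the shams 11.4, 10.8, 6.83 and 13.5 CPM. On day 3 they held 14.8, 30.7, 141, 47.7 and 89.2 CPM against 7.92, 6, 5.08 and 7.40 CPM. The fitted change was 1.84 ± 0.24 (adjusted p = 1.71e-07 by edgeR).

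Col4a1 (chromosome 8, 11198423 to 11312826, minus strand) encodes the alpha-1 chain of type IV collagen, a main constituent of vascular basement membranes. Its shams spanned only 23.0 to 33.8 CPM (median 28.2), and the controls lay at 20.5 to 28.3 CPM, reaching below the lowest sham. The MCAO libraries started at 35.9 CPM, had a median of 49.5 CPM and reached 291 CPM in MCAO day 7 C, where the other 4 libraries held 44.2 to 59.5 CPM. The fitted change of 1.16 ± 0.18 (adjusted p = 6.35e-06 by edgeR) was the smallest of the 4 genes.

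**Figure D2:**
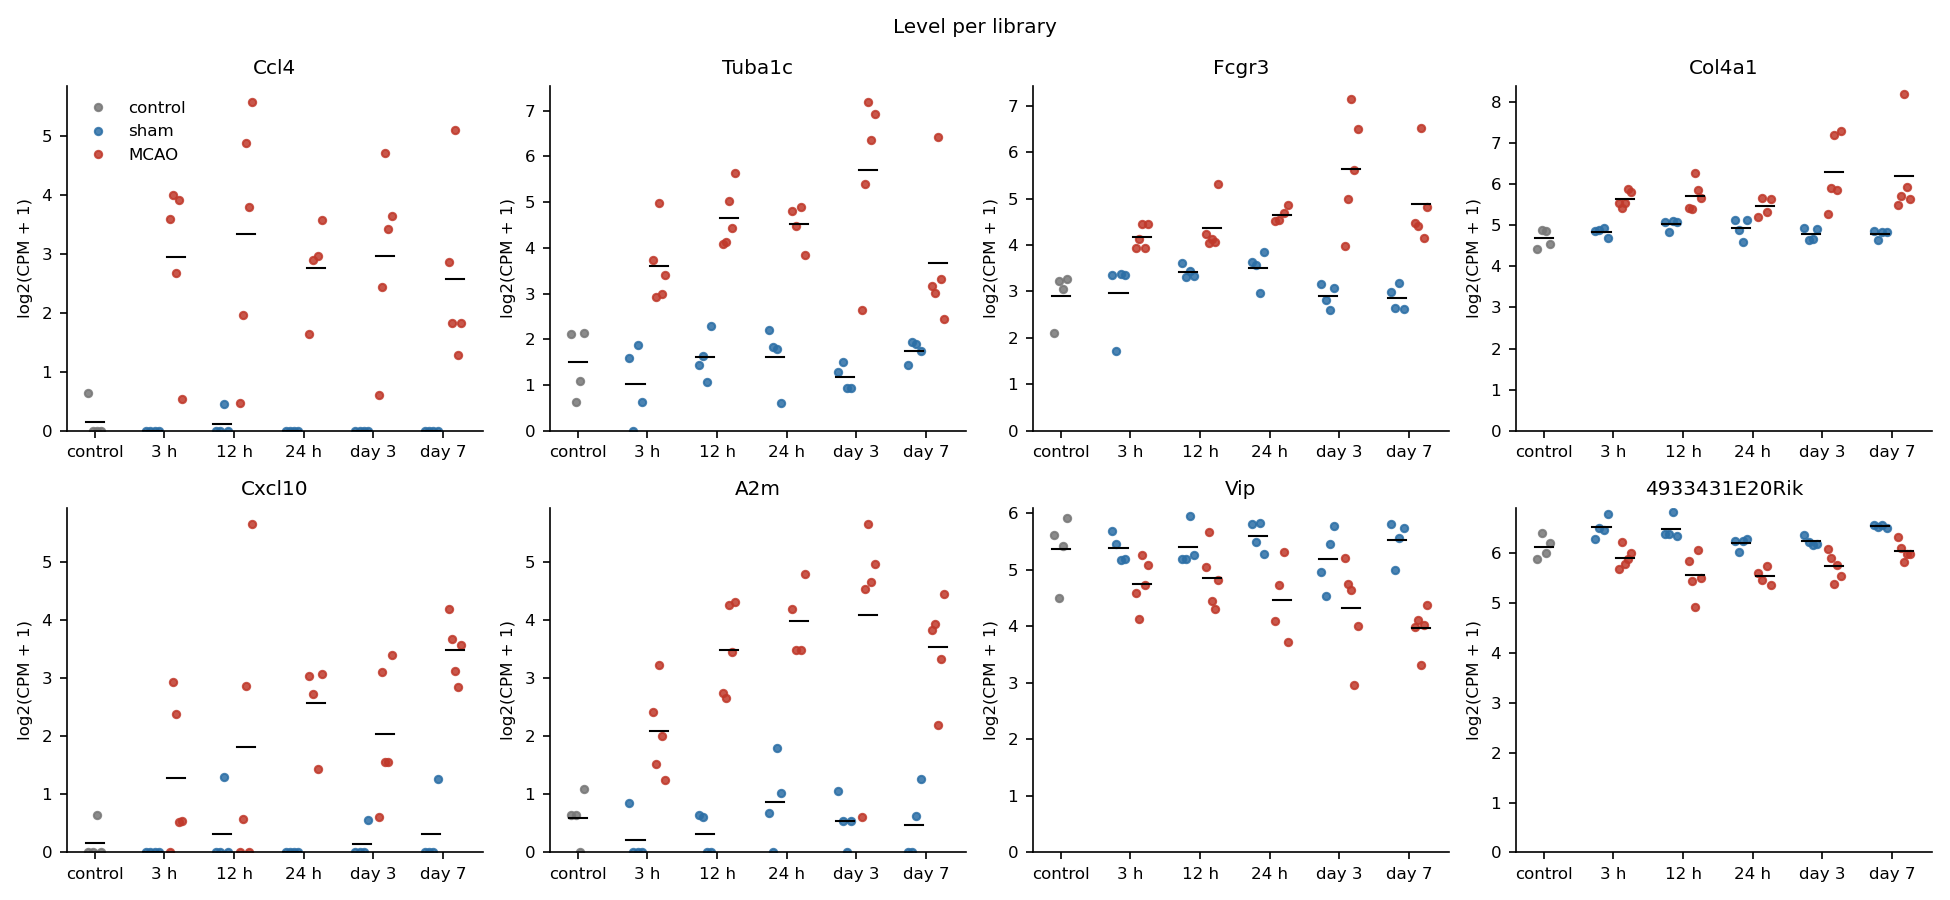
Level of 8 genes per library as log2(CPM + 1) at each time, with MCAO in red, sham in blue and control in gray. Points are libraries and short lines the group means on that scale. In the upper row (Ccl4, Tuba1c, Fcgr3, Col4a1) all 24 MCAO libraries lie above all 20 shams, though in Ccl4 the closest libraries tie in reads. In Cxcl10 and A2m some overlap, and Vip and 4933431E20Rik lie lower after MCAO.

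When each time was taken alone, 12 core genes had all MCAO libraries above all shams of that time at each of the 5 times (0.0605% of the genes tested), and 1 had them all below (0.00504%). By contrast, 176 of the 669 rising and 17 of the 65 falling core genes overlapped sham at all 5 times. Beside the 4 genes above, the 12 held 8 more with several known roles. Timp1, an inhibitor of matrix metalloproteinases, stood at 3.18 to 130 CPM (median 26.6) after MCAO and 0 to 4.39 CPM (median 1.65) in sham, and 23 of 24 MCAO libraries exceeded all shams. Ccl6, a chemokine of myeloid cells, stood at 2.93 to 83.9 CPM (median 13.8) against 0.393 to 6.63 CPM (median 2.13). Ifitm3, an interferon-induced membrane protein that restricts viruses, stood at 40.8 to 378 CPM (median 136) against 22.8 to 55.8 CPM (median 32.4).

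The other 5 showed smaller or rarer changes. Msn, the actin linker moesin, had a fitted log2 fold change of 2.04 ± 0.23, Cd63, a tetraspanin of late endosomes, one of 1.42 ± 0.20, and Rhoc, a small GTPase, one of 1.35 ± 0.18. Pdlim4, a cytoskeletal adaptor protein, rose by 1.38 ± 0.15, from 9.72 to 23.6 CPM in sham to 13.2 to 83.7 CPM. Tnfrsf10b, a death receptor of the TRAIL family, rose by 2.82 ± 0.39 from very low levels, with 18 reads over the 20 shams.

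The gene that lay below sham at each time was 4933431E20Rik (chromosome 3, 107888850 to 107896213, minus strand), an antisense RNA in the annotation. At 24 h it stood at 47.4, 43.3, 52.3 and 40.3 CPM after MCAO and at 74.3, 64.3, 75.2 and 76.9 CPM in sham. Over all times it spanned 29.1 to 78.6 CPM (median 55.1) against 64.3 to 112 CPM (median 82.4), and 19 of 24 MCAO libraries lay under all shams. The change was small but steady, at -0.63 ± 0.07 (adjusted p = 1.95e-08 by edgeR) and between -0.50 and -0.91 at each time. Without the 12 h libraries it was -0.55, inside the fold threshold. Counting by strand is not stated in the sources used here, so reads of its sense partner may be included.

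Among the rising core genes with a mean of at least 2 CPM, the 20 with the largest least change over the 5 times were led by secreted proteins of inflammation. For genes with few sham reads that order depends on the prior count of the fit. Chemokines were the largest group. Ccl2, which recruits monocytes, stood at 0 to 20.8 CPM (median 4.28) against 0 to 0.924 CPM with 4 reads in all shams, and 22 of 24 MCAO libraries exceeded every sham. Ccl3 stood at 0 to 58.6 CPM (median 5.48) with 4 sham reads, and Ccl12 at 0.455 to 33.8 CPM (median 6.54) with 22 sham reads. Cxcl10, an interferon-induced chemokine for T cells, stood at 0 to 49.1 CPM (median 5.89) against 0 to 1.46 CPM, with a fitted change of 4.79 ± 0.62. On day 7 its 5 MCAO libraries held 17.2, 11.7, 7.73, 6.19 and 10.8 CPM, whereas at 3 h 3 of the 5 were under 0.5 CPM. All 4 therefore had single MCAO libraries at or near the sham level.

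The other members acted in innate defense and tissue remodeling. A2m, the broad protease inhibitor alpha-2-macroglobulin, stood at 0.527 to 49.5 CPM (median 10.2) against 0 to 2.48 CPM (median 0.462) and had the lowest adjusted p of all genes tested, 1.26e-11 by edgeR, at a change of 4.64 ± 0.39. Ptx3, a soluble pattern recognition protein, stood at 0 to 19.2 CPM (median 1.91) with 4 sham reads, and Saa3, an acute-phase serum amyloid, at 0 to 63.5 CPM (median 0.961) with 2. Atf3, a stress-induced transcription factor, stood at 0 to 23.8 CPM (median 6.31) against 0 to 2.31 CPM (median 0.42) and rose by 3.85 ± 0.48. Cst7, the cysteine protease inhibitor cystatin F of phagocytes, had 2 sham reads in all and 184 reads in MCAO, a pooled ratio of 79.7 (exact 95% interval 21.7 to 663). Of its MCAO reads 84 fell on day 3 and 75 on day 7, and its libraries of 24 h held 3, 3, 3 and 4 reads.

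In 5 of the 20 genes the 20 shams together held no read, so only a lower bound of the fold could be given, against a floor of 3 reads over all shams. Pooled over libraries, Il1rn, the antagonist of the interleukin-1 receptor, was at least 141-fold higher after MCAO. Clec4d, a C-type lectin receptor of myeloid cells, was at least 85.8-fold higher, Acod1, which makes the immunometabolite itaconate, at least 80-fold, Mmp3, the matrix metalloproteinase stromelysin-1, at least 76.5-fold, and Slfn4, a Schlafen protein of myeloid cells, at least 53.4-fold. These genes were far from even among MCAO libraries. Clec4d was without reads in 3 of 24, Il1rn in 4, Mmp3 in 6, Acod1 in 9 and Slfn4 in 11. The fitted fold changes of such genes depend on the prior count and are not given. The rest of the 20 were Cyp4f18, a cytochrome of the leukotriene B4 pathway, at 54.6 times the pooled sham level (exact 95% interval 18.4 to 267, 3 sham reads), Gm26772, a noncoding RNA, and Gm49339, a predicted protein-coding gene.

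**Figure D3:**
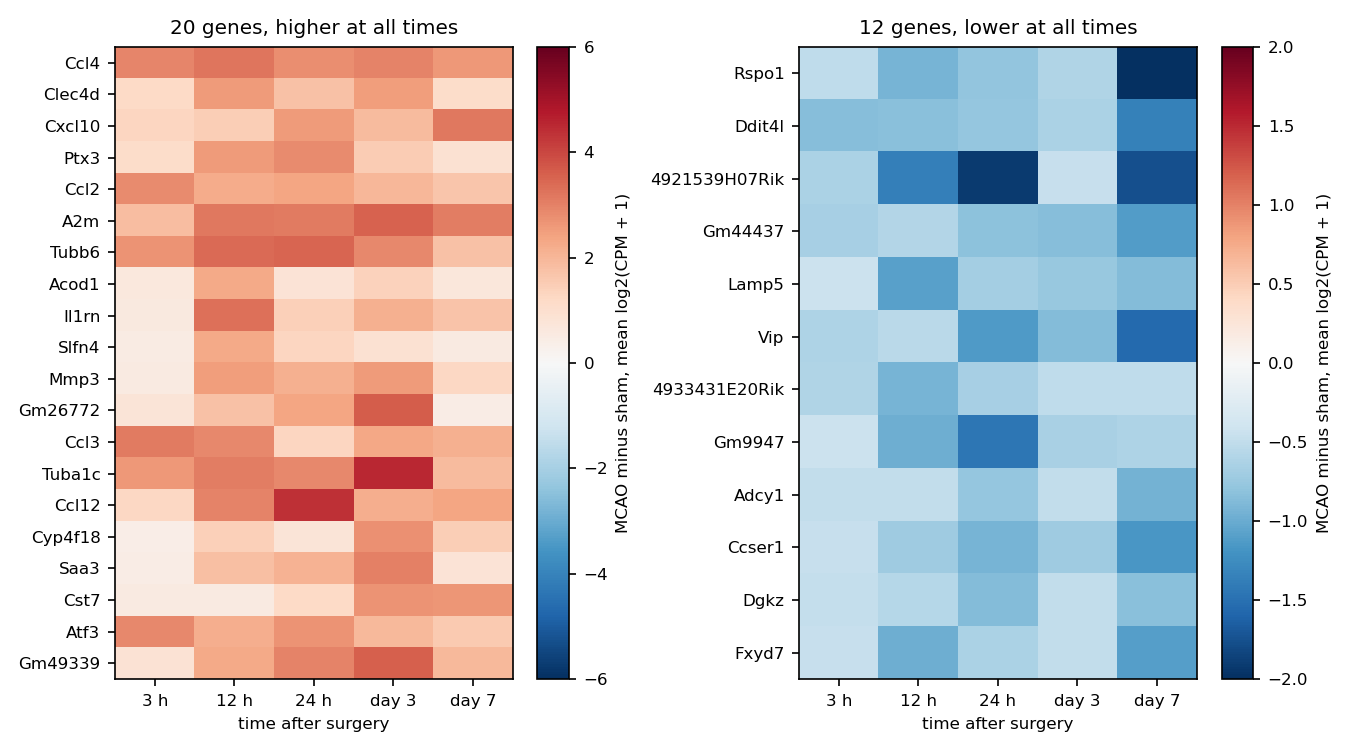
Difference of MCAO from sham in mean log2(CPM + 1) at each time for the 20 rising (left, color range -6 to 6) and 12 falling (right, color range -2 to 2) core genes with the largest least change and a mean of at least 2 CPM. On this scale, which understates the change of low genes, the differences at 3 h run from 0.401 (Cyp4f18) to 3.1 (Ccl3), and 7 of the 12 falling genes are lowest against sham on day 7.

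The promoters of genes that moved together are shown because the classical injury pathways act on short DNA motifs there. RefSeq promoters on GRCm38.p6, 250 bases before to 50 after a start, were found for 516 of the 669 rising genes (646 promoters), for 42 of the 65 falling genes (54 promoters) and for 13024 of all genes tested (16571 promoters), and both strands were searched. The AP-1 motif TGANTCA, bound by Fos, Jun and Atf3 family proteins, was in 11.9% of the rising promoters, 1.85% of the falling and 5.55% of all. The NF-kB motif was in 1.24%, in 0 of 54 and in 0.459%, and the STAT motif TTCCNGGAA in 1.70%, in 0 of 54 and in 1.19%. The hypoxia motif ACGTG was in 20.3%, 16.7% and 23.6%, the cAMP response motif TGACGTCA in 1.39%, 3.70% and 2.73%, the heat shock motif GAANNTTC in 6.66%, 1.85% and 5.83%, and the CArG box of serum response factor in 1.55%, 3.70% and 1.36%. The CArG box was spelled CCWWWWWWGG, where W is A or T. ACGTG and TGACGTCA do not hold each other, and matches are given as a description with no test. Looser spellings of the motifs were not searched. Promoters of 4 of the 20 genes follow, 5′ to 3′, with any match to these motifs in capitals. They are the first in order with a promoter in the table, after genes of a single chromosome were left out.
Clec4d, chr6:123261857-123262156, plus strand: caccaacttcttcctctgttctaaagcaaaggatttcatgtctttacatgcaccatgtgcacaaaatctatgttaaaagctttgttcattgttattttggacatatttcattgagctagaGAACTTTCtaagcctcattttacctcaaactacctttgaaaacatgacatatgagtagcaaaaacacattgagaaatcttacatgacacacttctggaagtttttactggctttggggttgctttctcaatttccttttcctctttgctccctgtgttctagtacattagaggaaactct
Cxcl10, chr5:92348840-92349139, minus strand: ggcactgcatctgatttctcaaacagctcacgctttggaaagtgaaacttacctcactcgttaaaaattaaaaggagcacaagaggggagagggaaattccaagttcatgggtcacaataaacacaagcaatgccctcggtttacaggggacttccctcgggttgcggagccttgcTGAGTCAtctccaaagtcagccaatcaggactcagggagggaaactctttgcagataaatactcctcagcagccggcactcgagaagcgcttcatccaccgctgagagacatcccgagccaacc
Ptx3, chr3:66219637-66219936, plus strand: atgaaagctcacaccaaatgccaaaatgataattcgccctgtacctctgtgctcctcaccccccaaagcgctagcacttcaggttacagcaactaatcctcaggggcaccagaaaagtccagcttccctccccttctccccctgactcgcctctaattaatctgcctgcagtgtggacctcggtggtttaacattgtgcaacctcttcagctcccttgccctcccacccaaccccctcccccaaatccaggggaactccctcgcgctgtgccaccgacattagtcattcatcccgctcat
Acod1, chr14:103046762-103047061, plus strand: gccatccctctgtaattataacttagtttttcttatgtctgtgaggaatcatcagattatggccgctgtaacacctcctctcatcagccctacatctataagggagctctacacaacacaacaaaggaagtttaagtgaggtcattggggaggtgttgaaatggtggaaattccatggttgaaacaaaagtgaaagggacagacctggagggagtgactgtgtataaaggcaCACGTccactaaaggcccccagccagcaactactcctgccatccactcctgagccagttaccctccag
The capitals mark a heat shock motif in Clec4d (bases 121 to 128 of the stretch), the AP-1 motif in Cxcl10 (bases 177 to 183) and the hypoxia motif in Acod1 (bases 233 to 237, read on the other strand). In Ptx3 none of the 7 motifs, as spelled here, was in this window. Looser forms of the motifs, those of NF-kB among them, were not searched in any of these promoters. Bases in lower case may therefore hold such forms, in Cxcl10 as in the others.

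The breadth of the core was described with lists of genes by role, each beside the background of 4.61% of genes called higher, 0.358% called lower and a median log2 fold change of 0.02. The lists share some members, so their counts are not independent. Timp1 was on those of reactive astrocytes and of matrix, and Cxcl10 on those of chemokines and of reactive astrocytes. Ccr2 was on those of chemokines and of monocytes, and Cxcr2 on those of chemokines and of neutrophils. Genes of inflammatory signaling come first. Of 21 chemokines and chemokine receptors, 17 were called higher, all 17 in the core, with a list median of 3.47. Cxcl1 and Cxcl2, which attract neutrophils, and the receptors Ccr1, Ccr2, Cxcr2 and Cxcr4 were among them. The 4 that were not called were Ccl11 (1.39), Cxcl14 (-0.09), Cxcl12 (-0.26) and Cx3cl1 (-0.38), of which Cxcl12 and Cx3cl1 are chemokines of the resting brain. The summed level of the list did not rise with its median change. It was 399 to 1350 CPM (median 786) in MCAO and 409 to 1060 CPM (median 851) in sham.

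In the list of interleukin-1, tumor necrosis factor and NF-kB genes 15 of 19 were called higher and 14 were in the core (median 1.66). Il1b, the cytokine interleukin-1 beta, stood at 0 to 231 CPM (median 3.64) against 0 to 1.21 CPM (median 0.466) and rose by 5.13 ± 0.71. Among 16 genes of the interleukin-6 family and STAT3, 7 were called and 6 were in the core (median 1.07). Socs3, the feedback inhibitor of that pathway, stood at 0.762 to 144 CPM (median 23.8) against 0 to 8.28 CPM (median 3.29), with changes from 2.41 to 3.6 at the 5 times, and Osmr, the oncostatin M receptor, rose by 2.17. Of 19 interferon-stimulated genes 17 were called and 14 were in the core (median 1.89). Their median was 0.82 at 3 h (0.499 without MCAO 3 h C) and 2.40 on day 3. Ifi27l2a, one of them, held 1 to 2 reads in MCAO and 0 to 2 in sham at 3 h and had a change of 4.46 on day 7.

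Glial genes split by state. Of 21 genes of reactive astrocytes 16 were called, all in the core, with list medians of 1.09 at 3 h and 2.84 on day 3. Lcn2, the iron-siderophore binding lipocalin, rose by 3.29 over all times. Of 14 genes of resting astrocytes 1 was called, the water channel Aqp4, at 57.3 to 178 CPM (median 96.6) against 30.4 to 90.1 CPM (median 60.3), but its change at 3 h was -0.04 and it was outside the core (list median 0.00). Of 21 genes of reactive microglia and phagocytes 16 were called, all in the core (median 1.85, from 0.43 at 3 h to 3.13 on day 3). Lgals3, galectin-3, stood at 1.58 to 530 CPM (median 21.2) against 0 to 3.82 CPM (median 1.12), and Spp1, osteopontin, at 1.67 to 2580 CPM (median 18.6) against 0.404 to 7.27 CPM (median 2.55).

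Of 12 genes of resting microglia 3 were called higher and only Olfml3 was in the core. The list median was -0.24 at 3 h, -0.60 at 12 h and 1.24 on day 3, and 5 of the 12 passed the test of condition by time described below. Csf1r, the receptor for colony-stimulating factor 1, was among these, with changes of -0.02 at 3 h and 2.24 on day 3, and its call was lost without day 3 (0.37, adjusted p = 0.14 by edgeR) and without any 1 of sham day 3 A, B or D. Complement genes were called in 11 of 13 and 8 were in the core (median 1.53), and 4 passed the test of condition by time. C4b, a component of the classical pathway, is given by the study as a reactivity marker of astrocytes and oligodendrocytes. It stood at 9.06 to 105 CPM (median 31.5) against 3.69 to 17.9 CPM (median 9.45). Its changes ran from 0.52 at 3 h (1.32 without sham 3 h C) to 3.57 on day 3.

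Neutrophil genes were low in sham and uneven among MCAO libraries. Of 10 neutrophil genes tested 7 were called and 6 were in the core (median 2.82), and their summed level was 10 to 1730 CPM (median 35.5) against 1.87 to 11.6 CPM (median 5). S100a9, a subunit of calprotectin, stood at 1.19 to 897 CPM (median 10.3) against 0 to 3.73 CPM in sham. At 12 h MCAO 12 h E held 897 CPM and the other 4 libraries 3.81 to 76.9 CPM, and on day 3 MCAO day 3 C held 239 CPM and the other 4 held 1.58 to 30.6 CPM. Its 4 libraries of 24 h held 12.1 to 25.1 CPM and the 5 of day 7 held 1.19 to 4.76 CPM. The granule genes Camp (0.18), Ltf (1.01) and Ngp (1.08) were not called. Of 13 genes of monocytes and lymphocytes 7 had enough reads to be tested and 4 were called, all in the core, namely Plac8, Ly6c2, Ccr2 and Ms4a7. Trbc2, a constant segment of the T cell receptor, was not called and lay at -0.98, and since it was the highest of the 7, the summed level was 12.3 to 111 CPM (median 26.3) in MCAO and 5.72 to 62.1 CPM (median 41.6) in sham, opposite in direction to the list median of 2.69. Cd3e, Cd3g, Cd8a, Ms4a1 and Cd79a, which define T and B cells, had at most 10 reads over the 44 libraries.

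Hemoglobin genes moved with the condition too. Hbb-bs, a beta-globin, stood at 15.5 to 721 CPM (median 145) after MCAO and 2.37 to 71.0 CPM (median 11.2) in sham, and at 17.8 to 46.6 CPM in the controls. All 4 globin genes of the list of blood and pituitary genes were in the core, with changes from 2.76 (Hba-a1) to 3.43 (Hbb-bs). The pairs Hba-a1 and Hba-a2, and Hbb-bs and Hbb-bt, are near copies, so the split of reads within a pair is uncertain. The mice were perfused before dissection, and the part of remaining blood in the rise of the leukocyte genes was not tested. The summed level of the 8 genes of that list was 36.7 to 1420 CPM (median 295) in MCAO and 12.1 to 580 CPM (median 27.0) in sham. The highest sham was 3 h C, where 838 reads of Gh and 307 of Prl, hormones of the pituitary, were counted.

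Stress genes were called in part. Of 24 immediate early factors 9 were called and 7 were in the core (median 0.55), and the list medians were 1.20, 0.317, 0.592, 0.165 and 0.641 at 3 h, 12 h, 24 h, day 3 and day 7. Without MCAO 12 h C, MCAO 24 h D, MCAO day 3 D and MCAO day 7 C in turn, the medians of their times were 0.186, 0.238, 0.0685 and 0.4. Those in the core were Atf3, Maff, Fosl1, Fos, Jun, Junb and Btg2, whereas Egr1 (-0.12), Nr4a1 (0.09) and Nr4a2 (-0.20) were not called. Of 18 heat shock genes and co-chaperones 5 were called and 4 were in the core (median 0.22). Hspa1a, the inducible form of HSP70, stood at 7.61 to 720 CPM (median 34.4) against 6.22 to 19.6 CPM (median 9.28), with changes of 4.01 at 3 h, 4.46 at 12 h and 1.01 on day 3. At 12 h MCAO 12 h C held 720 CPM and the other 4 held 9.9 to 63.9 CPM, and the change was 2.29 without it, as it was 0.589 on day 3 without MCAO day 3 C. Its near copy Hspa1b may share reads with it.

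Of 15 targets of the antioxidant factor NRF2 4 were called, all in the core, led by Hmox1, heme oxygenase 1, at 0.574 to 106 CPM (median 15.0) against 0.366 to 4.03 CPM (median 1.11). Of 5 genes of metallothioneins and zinc transport 3 were called and 2 were in the core, of which Mt2, a zinc-binding protein, rose by 0.99 ± 0.13. Of 13 growth arrest genes and p53 targets 3 were called, Cdkn1a, Gadd45b and Gadd45g, all in the core. Hypoxia targets were called in 2 of 16 (median 0.20). Hk2, hexokinase 2, was in the core, at 7.38 to 73.7 CPM (median 18.4) against 2.60 to 10.2 CPM (median 5.65), and Adm, the vasodilator adrenomedullin, was not, since it went from 3.08 at 12 h to -0.52 on day 7. None was called among 18 genes of endoplasmic reticulum stress (median 0.30), 12 genes of feedback on the kinase ERK (0.19), 31 proteasome subunits (0.06) or 20 genes of cholesterol synthesis (0.23).

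Vessels and matrix held core genes beyond Col4a1 and Timp1. Of 16 genes of vessel activation and coagulation 9 were called and 7 were in the core, with list medians between 1.1 and 1.35 at all 5 times. The day 3 median was 0.786 without MCAO day 3 E, and the day 7 median was 0.65 without MCAO day 7 C. The summed level of the list was 94.8 to 468 CPM (median 159) in MCAO, 86.3 to 134 CPM (median 102) in sham and 96.7 to 196 CPM (median 151) in the controls, which thus overlapped both. Selp, the leukocyte adhesion molecule P-selectin, had 4 reads in all shams and 258 in MCAO, with 1, 9, 88, 13 and 44 reads on day 3 and 0, 0, 1, 1 and 1 on day 7, and 7 and 11 reads in controls C and D. Of 12 endothelial genes 2 were called higher, the junction proteins Cdh5 and Pecam1, and 1 lower, the transporter Slco1a4. That transporter stood at 10.9 to 79.3 CPM (median 37.3) against 42.7 to 92.6 CPM (median 65.2), and its change was deepest at 12 h (-1.12) and -0.28 on day 7. Of 24 genes of fibroblasts and matrix 19 were called and 14 were in the core (median 1.57, from 0.49 at 3 h to 2.63 on day 7). MCAO day 7 C held a summed level of 8090 CPM of that list and the other 4 libraries of the day 686 to 1200 CPM, and without it the day 7 median was 1.43. Of 16 cell cycle genes 8 were called but 3 were in the core, with list medians of -0.31 at 3 h and 3.03 on day 3.

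**Figure D4:**
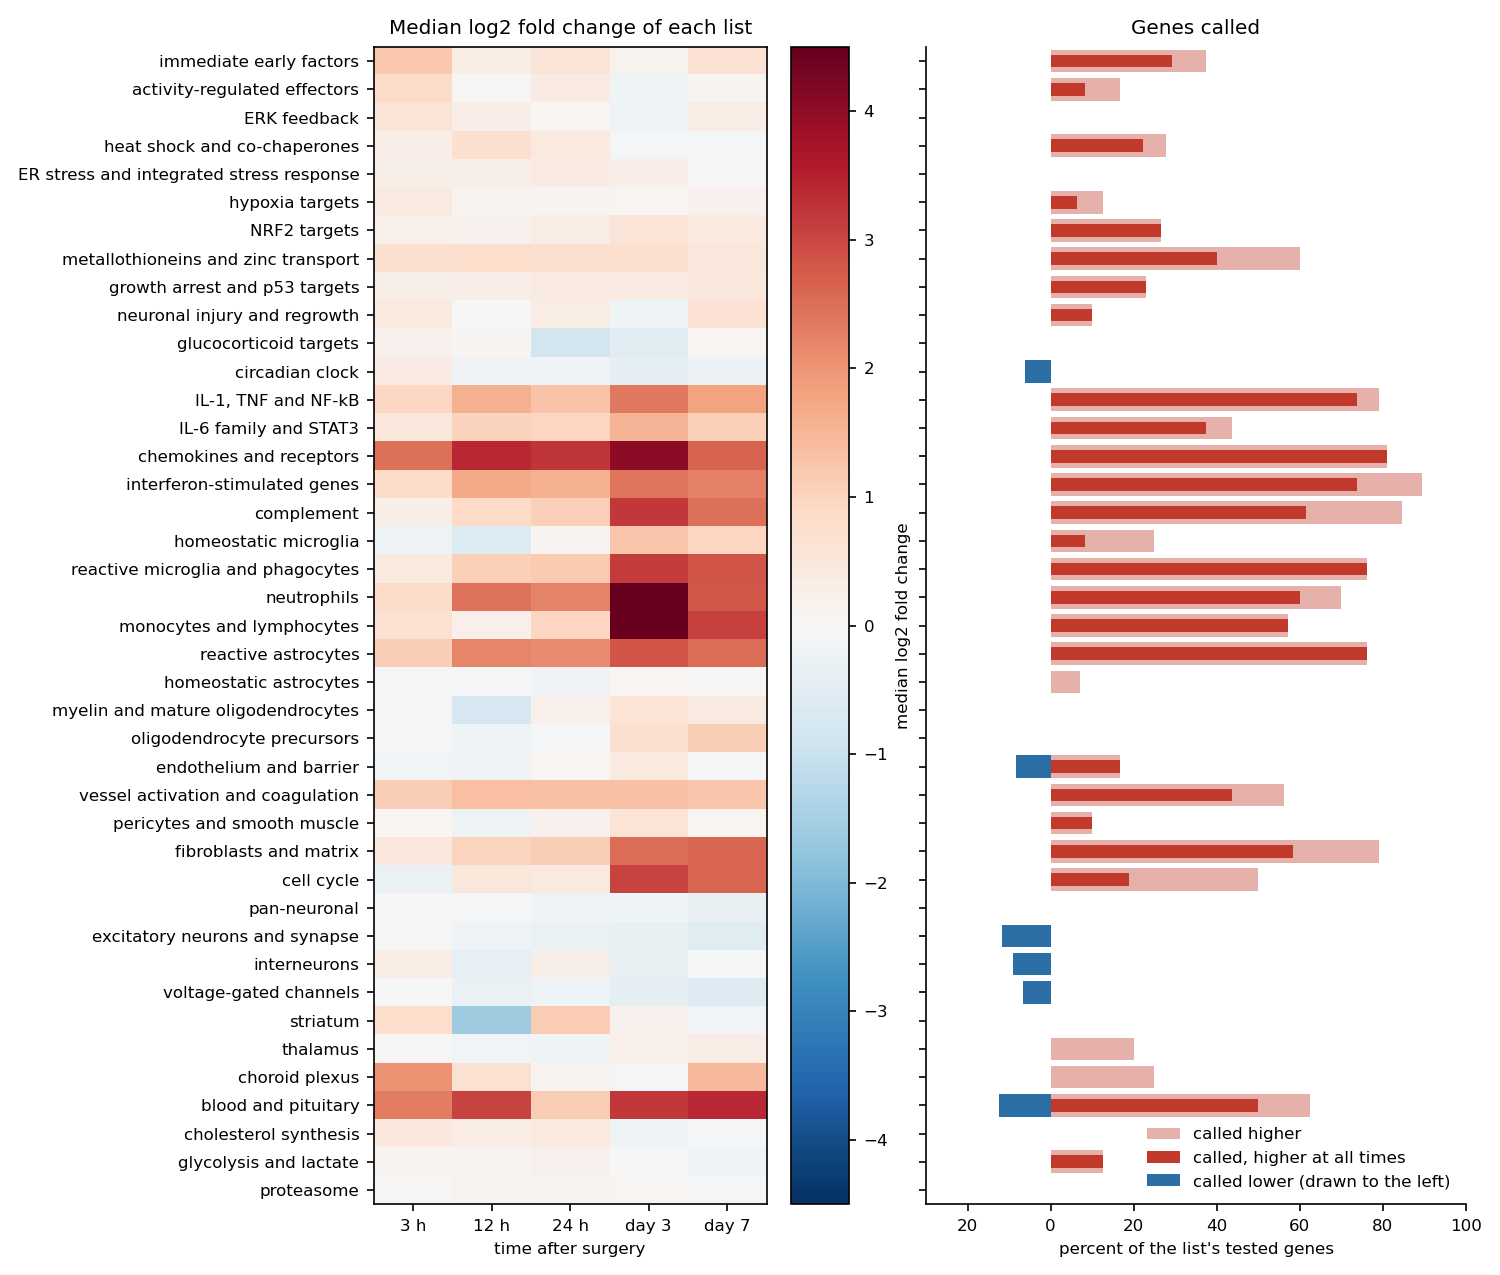
Median log2 fold change of the tested genes of 41 lists at each time (left) and the percent of each list's tested genes called higher, called higher in the core, and called lower (right, lower drawn to the left of 0). The lists of interferon-stimulated genes (17 of 19), complement (11 of 13) and chemokines (17 of 21) hold the highest shares called higher, while the pan-neuronal, excitatory neuron, interneuron, channel, proteasome and cholesterol lists hold none.

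Few genes of the pan-neuronal, excitatory, interneuron and channel lists were called, and all of these were lower. In each list but the pan-neuronal, the share exceeded the 0.358% of all genes tested that were called lower. None of 13 pan-neuronal genes was called, with a list median of -0.21 that went from 0.06 at 3 h to -0.33 on day 7. Syt1, the calcium sensor of transmitter release, stood at 2200 to 4370 CPM (median 3370) against 3610 to 4760 CPM (median 4050). Its difference of -0.31 ± 0.07 had an adjusted p of 0.00095 by edgeR but was inside the fold threshold, and 15 of 24 MCAO libraries lay under all shams. Of 17 genes of excitatory neurons and synapses 2 were called lower, Neurod6, a transcription factor of cortical projection neurons, and Nrgn, neurogranin of dendritic spines, and of 15 voltage-gated channels 1 was, the sodium channel Scn1a. Nrgn stood at 5870 to 14800 CPM (median 9800) against 6270 to 27600 CPM (median 15800). Nrgn (-0.60) and Scn1a (-0.61) were just past the fold threshold. Without day 7 they were at -0.43 and -0.42 and no longer called. Nrgn also fell short of the threshold in 8 of the 44 fits that left out 1 library (without MCAO 12 h E, MCAO day 7 B or C, sham 3 h D, sham 24 h B or C, or sham day 7 A or D), and Scn1a in 9 (without MCAO 3 h E, MCAO 24 h B, MCAO day 7 A, C or D, sham 3 h A, sham 24 h C, or sham day 7 A or D).

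Of 11 genes of interneurons 1 was called lower, Vip, and the list median was -0.03, with 0.34 at 3 h and 0.25 at 24 h (-0.229 without MCAO 24 h D). None of the 7 striatal genes tested was called, and their list median was 0.215, from -1.61 at 12 h to 1.15 at 24 h. Without MCAO 24 h D the 24 h median was 0.0175. The 12 h median was -2.7 without MCAO 12 h D and -1.19 without sham 12 h A. Vip was also among the 12 falling core genes with the largest least change.

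Vip, the vasoactive intestinal peptide of a class of interneurons, stood at 6.81 to 49.4 CPM (median 21.8) against 22.2 to 60.7 CPM (median 42.6). On day 7 it held 14.9, 16.2, 8.92, 15.2 and 19.7 CPM after MCAO and 54.7, 30.8, 46.1 and 52.0 CPM in sham, without overlap. Over all times it fell by 0.89 on the log2 scale (SE 0.15, adjusted p = 1.82e-05 by edgeR). Lamp5, a membrane protein of cortical neurons, stood at 25.9 to 116 CPM (median 69.7) against 49.3 to 180 CPM (median 118). Adcy1, the calcium-stimulated adenylyl cyclase of synapses, was the most abundant of the 12, at 159 to 475 CPM (median 310) against 319 to 624 CPM (median 476), and 13 of 24 MCAO libraries lay under all shams.

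Rspo1, a secreted enhancer of Wnt signaling, had the largest least change, at 0.508 to 19.4 CPM (median 4.52) against 1.56 to 39.4 CPM (median 12.6), but its call (-1.14 ± 0.30, adjusted p = 0.0055 by edgeR) was lost in 7 of the 44 fits that left out 1 library, those without sham 3 h A or D, sham 12 h D, sham 24 h B or C, sham day 3 D or sham day 7 C. Ddit4l, a stress-responsive inhibitor of mTOR signaling, stood at 17.8 to 59.5 CPM (median 37.0) against 27.5 to 128 CPM (median 70.4). Dgkz, a diacylglycerol kinase, fell by 0.63, Fxyd7, a regulator of the sodium pump in neurons, by 0.71, and Ccser1, a coiled-coil protein, by 0.86. The 4 others were 4933431E20Rik and 3 low transcripts, 4921539H07Rik, Gm9947 and Gm44437, at means of 3.52, 2.5 and 5.07 CPM over the libraries.

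To see whether the same genes were called early and late, the first 3 times and the last 2 were fitted apart. Early, 318 genes were called higher (1.71% of 18596 tested) and 30 lower (0.161%). Late, 859 were called higher (4.77% of 18013) and 155 lower (0.86%). Of the rising genes 175 were called in both fits, 55.0% of the early and 20.4% of the late calls, and 171 of them were in the core. Of the falling genes 5 were called in both, 16.7% of the early and 3.23% of the late calls. No gene called early in a direction was called late in the other. In the test of the difference itself 53 genes had a higher effect early than late (0.267% of the genes tested) and 151 a lower one (0.762%).

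The size of the effect was tested against time as well. By edgeR's quasi-likelihood test of condition by time 72 genes (0.363% of those tested) differed between times. Among the core they were 11 of 669 rising and 0 of 65 falling genes. The core thus varied in size over time, as its medians show, but few single genes passed that test. The count of 72 depended on the processing, at 238 with no filter on low counts and 415 with DESeq2.

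The strongest genes of that test given here were high or low in all or most libraries of a group, with no common direction between conditions. Tmem181b-ps, a transcribed pseudogene, had 1, 0, 0 and 0 reads in the 4 MCAO libraries of 24 h, against 11 or more in each other MCAO or sham library. The sources give a single strain name for all mice, and what set these 4 libraries apart was not tested. Synpr, a synaptic vesicle protein, was low in all MCAO libraries of 3 h (5, 6, 11, 7 and 18 reads), against 23 to 308 reads outside these 2 groups. It was also low in 3 of 4 shams of 12 h (9, 8 and 11 reads), with 36 reads in the other. 4930526A20Rik, a processed pseudogene, stood at 37 to 83 reads in MCAO at 12 h and 2 to 9 in sham, and at 4 to 10 reads in 4 of 5 MCAO libraries on day 3 (68 in the other) and 48 to 65 in sham. On day 7 it had 38, 37, 40, 72 and 4 reads in MCAO and 2 to 5 in sham, and the 4 controls had 33, 1, 38 and 2.

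These 3 genes were outside the core, and without the 24 h libraries the counts of the core were 640 rising and 48 falling genes over the 4 other times. The other genes chosen from that test changed sign between early and late times. Ifrd1, an interferon-related regulator induced by stress, stood at 269 to 663 reads at 3 h against 108 to 214 in sham and at 82 to 124 reads on day 7 against 144 to 201, with changes of 1.61 and -0.59. Gpr17, a receptor of maturing oligodendrocyte precursors, had changes of -1.35 at 12 h and 1.98 on day 7.

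In all, 252 genes were called over all times without holding a single direction, of which 163 called higher lay at or under 0 at 3 h. The 4 largest with a mean of at least 2 CPM each rested on few libraries or times. Arg1, arginase 1 of wound-healing macrophages, had 1 read in 5 MCAO libraries at 3 h, stood at 7.19, 3.26, 4.68 and 23.8 CPM at 24 h and at 0, 12.4, 136, 14.1 and 112 CPM on day 3, with 3 reads in all shams. Cd5l, a macrophage-secreted scavenger protein, had 450 reads in MCAO, of which 264 fell on day 3 and 179 on day 7, and 1 read in sham, a pooled ratio of 390 (exact 95% interval 69.6 to 15400). H19, an imprinted noncoding RNA, had 1816 reads in MCAO day 7 C, 15 to 61 in the other 4 libraries of that day and 24 in all shams. Prl was called lower from 307 reads in sham 3 h C, and without that library it had too few reads to be tested.

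**Figure D5:**
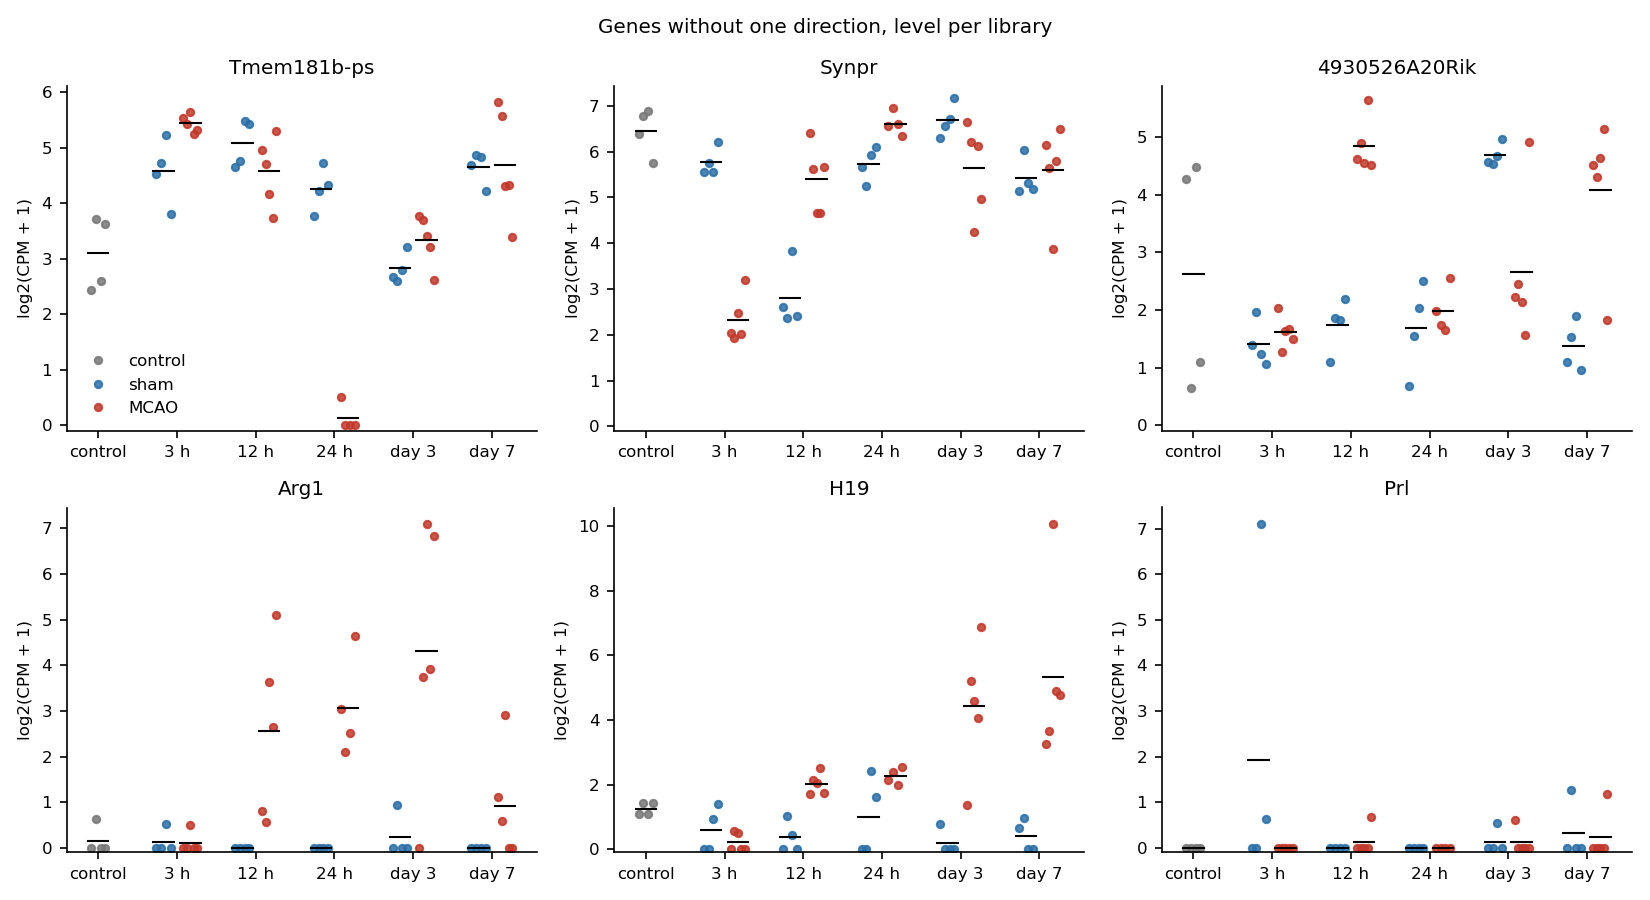
Level per library as log2(CPM + 1) of 6 genes without a single direction, with MCAO in red, sham in blue and control in gray, points for libraries and short lines for group means. Tmem181b-ps is at or near 0 in the 4 MCAO libraries of 24 h, and Synpr is low in MCAO at 3 h and in 3 of 4 shams at 12 h. 4930526A20Rik is higher after MCAO at 12 h and lower in 4 of 5 MCAO libraries on day 3, with controls on both levels. Arg1 and H19 rise from 12 h on, and Prl is high in 1 sham library.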

How the data were processed

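Total RNA from 48 mouse brain samples was sequenced as 3′ mRNA libraries (QuantSeq, single-end reads) with ERCC spike-ins. According to the methods of the study, the authors used Trimmomatic for trimming, SortMeRNA to take out ribosomal and mitochondrial sequences, STAR (version 2.5.2b per the submitters' processing notes) for alignment to GRCm38, and the union mode of htseq-count with Gencode vM8 genes for counting. The authors deposited raw counts per gene for each library, which were used here, and a variance-stabilized log2 matrix of the same libraries made by the authors with DESeq, used only as an alternative. Each 3′ read marks a transcript end, so counts were not divided by gene length, and levels were not compared between genes. No unique molecular identifiers were used, so intervals and floors cover counting error only.

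Spike-in rows (92) and rows that name no gene were left out of library sizes and tests. In MCAO and sham, reads without a feature came to 21.08% to 30.65% of a library's reads and ambiguous reads to 0.343% to 0.475%. Symbols and coordinates came from Gencode vM21 on GRCm38 and named 46488 of 46983 gene identifiers. Genes with more than 10 reads over the 44 MCAO and sham libraries (19827) were fitted with edgeR 4.0.16 in R 4.3.3 (TMM scaling, quasi-likelihood F test, time as a block, biological coefficient of variation 27.2%). Fold changes at each time came from a fit of group means, and adjusted p-values are Benjamini-Hochberg over all genes tested. Groups came from the sample labels. The study counts its bulk samples as mice, but the labels tie no sample to an animal, so if samples shared an animal the p-values would measure in part technical spread. No 2 libraries held identical values.

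Genes named were the 20 rising and 12 falling core genes with the largest least change over the 5 times at a mean of at least 2 CPM, up to 4 called members of each list (or up to 2 of the most abundant), the 6 strongest genes of the condition by time test past the threshold in both directions, and the 4 largest called genes without a single direction. Genes with no overlap at any time, other list members, Ctnnd1 and Psap were named after their values were seen. Some genes that these rules or lists hold are not reported here. The comparison, the lists and these rules were chosen with earlier results of these data known. The fitting steps were tested on simulated counts.

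Alternatives were other size factors, other filters, spike-in scaling, DESeq2 1.42.0, limma 3.58.1 on the deposited log2 matrix, no time block, equal weights of times, controls in the fit, a replicate block, and fits without each time or library, also for changes at a time. The replicate letters name samples and are not stated to pair them.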

Additional observations from a re-analysis of the deposited data

Results flagged for a closer look

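Over 110 groups of 4 or 5 libraries examined for a single library far from the rest (Dixon's 95% limit), 16 values stood out. That limit is made for normally distributed values, and most of these were untransformed CPM. The number to be had by chance is therefore not known here. MCAO day 7 C was the most frequent. Its median change of the rising core genes was 2.16, against 0.646 to 0.918 in the other libraries of that group. It held 33.3 CPM of Ccl4 (others 1.43 to 6.31), 84.4 CPM of Tuba1c (4.44 to 9.05), 90.4 CPM of Fcgr3 (16.7 to 27.3) and 291 CPM of Col4a1 (44.2 to 59.5). Without this library 819 genes were called higher and 57 lower.

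Ccl4 stood out at 0.366 CPM in sham 12 h C (others 0), where any single read would be flagged. Other far values were 30.6 CPM of Tuba1c in MCAO 3 h C (6.58 to 12.4), 39.0 CPM of Fcgr3 in MCAO 12 h E (15.5 to 17.9) and 2.31 CPM of Fcgr3 in sham 3 h B (9.29 to 9.39). Col4a1 was low at 27.7 CPM in sham 12 h B (32.6 to 33.3) and at 23.7 CPM in sham day 7 B (27.6 to 28.2). 4933431E20Rik was high at 112 CPM in sham 12 h C (79.8 to 83.1).

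Summed marker levels pointed to single libraries as well. Blood and pituitary genes summed to 580 CPM in sham 3 h C (others 12.1 to 100). Choroid plexus genes summed to 40.7 CPM in MCAO 12 h A (1.77 to 4.36) and to 53.4 CPM in MCAO day 7 D (4.44 to 10.1). Striatal genes summed to 1290 CPM in MCAO 12 h D (378 to 492). The part of these tissues in the results was not tested.

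The effect of MCAO differed between times by edgeR's test of condition by time in 9 of the genes that the rules named and that are given here. The adjusted p was 1e-07 for Synpr, 9.12e-07 for Tmem181b-ps, 5.05e-05 for 4930526A20Rik, 5.05e-05 for Ifrd1 and 7.06e-05 for Gpr17. It was 0.00442 for C4b, 0.00506 for Csf1r, 0.00541 for Dusp14, a phosphatase of MAP kinases, and 0.0086 for Msmo1, an enzyme of cholesterol synthesis.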

How the results depend on the processing

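The numbers of genes called differed with the time left out, the tool and the filter. Without day 3, 497 genes were called higher and 442 of these held a single direction, and without day 7, 37 were called lower and 35 held it. With limma on the deposited log2 matrix 350 genes were called higher and 12 lower, of which 296 and 11 held a single direction. The test of condition by time called 238 genes with no filter on low counts and 415 with DESeq2, against 72. The test of early against late effects called 342 with no filter, 124 with spike-in scaling and 462 with DESeq2, against 204. Spike-in scaling moved the median of all genes from 0.015 to -0.0329 and called 814 higher and 94 lower. The causes were not tested.

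In the 44 fits without 1 library, 812 to 1009 genes were called higher and 48 to 86 lower. Of those, 600 to 724 and 43 to 76 held a single direction, with 43 falling genes without sham 24 h C and without sham day 7 A. Of 111 called genes named by the rules, 100 were called in each of these fits. Same-lettered MCAO and sham samples of a time did not deviate together (20 pairs, median correlation 0.034, from -0.202 to 0.116). With the replicate block 697 genes were called higher and 53 lower, of which 545 and 46 held a single direction, and Rspo1, Fosb, Nptx2, Slc7a11, Clcf1, Csf1r, Cdh5, Plau, Nrgn and Prkcd were no longer called. Counts within lists moved as well. Of 19 interleukin-1, tumor necrosis factor and NF-kB genes, 13 were called higher with spike-in scaling and 10 with the replicate block, against 15. Of 15 NRF2 targets 2 were called with either, against 4. Of 18 genes of endoplasmic reticulum stress 3 were called higher with DESeq2, against 0.

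Some genes that were not called changed sign. Dusp14 was at 0.0244 with no time block, 0.102 without day 3, 0.155 without day 7, 0.000314 without the libraries that stand apart and from -0.0644 to 0.0106 without 1 library. Mbp was at -0.0114 with spike-in scaling, -0.0988 without day 7 and from -0.0393 to 0.141 without 1 library. Ptprz1 was at -0.00529 with spike-in scaling, -0.0187 without day 3 and -0.0263 without day 7. Psmc1 was at -0.0142 with spike-in scaling, -0.0482 without 12 h, -0.00859 without 24 h, -0.0333 without day 3 and from -0.0244 to 0.0726 without 1 library. Without day 3 Calr was at -0.0393, Map2 at 0.00713, Psmd4 at -0.0317, Synpr at 0.18 and Gpr17 at -0.037. Without day 7 Gpr17 was at -0.344. Tmem181b-ps was at 0.277 without 24 h and at 0.0377 with no time block. Synpr was at 0.596 without 3 h and from -0.204 to 0.0198 without 1 library. At this depth, genes near 0 reads in sham rest on few reads.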

Other observations

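Some lists held no or few called genes, and their medians differed between times with no test of the list. Of 12 genes of oligodendrocyte precursors none was called, and the list median was between -0.19 and -0.08 at the first 3 times, 0.71 on day 3 and 1.1 on day 7. Of 12 genes of myelin and mature oligodendrocytes none was called, and the list median was -0.75 at 12 h, 0.61 on day 3 and 0.396 on day 7. Markers of striatum, a deeper region, had a list median of -1.61 at 12 h as well. In MCAO 24 h D the summed levels of both lists were the highest of the group, at 5300 CPM (others 1250 to 2570) for myelin and 3770 CPM (others 243 to 1770) for striatum, and the part of the tissue taken in the myelin values was not tested. Of 9 glucocorticoid targets none was called, with list medians of -0.81 at 24 h (-0.424 without MCAO 24 h B) and -0.50 on day 3 and from 0.0994 to 0.204 at the other times. Of 16 clock genes 1 was called lower, the transcription factor Hlf.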
